A study of Rattus norvegicus with 42 samples.

Results

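The transcripts described here belong to 51 genes of S phase and mitosis, taken by gene symbol from a list that was drawn up with earlier results of these data known. Of these symbols, 50 were in the count table, with 54 transcripts out of 15516, and 52 of the 54 were among the 13062 transcripts that passed the filter on low counts. The gene Kif4a was not analysed here. The 2 transcripts below the filter were one of Kif2c (NM_134472, normalized counts of 0 to 9.56) and one of Prim1 (NM_001008768, 0 to 11.4).

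RNA was sequenced from the hippocampus of male Sprague Dawley rat pups, 1 library per animal. On postnatal day 7 each pup had a single intraperitoneal injection, of 75 mg/kg phenobarbital (PB), of 200 mg/kg levetiracetam (LEV) or of saline as vehicle (VEH), and the tissue was taken 72 h later. Phenobarbital is a barbiturate that enhances GABA-A receptor currents, and levetiracetam binds the synaptic vesicle protein SV2A; both are given to newborns with seizures. The analysis held 13 VEH, 14 PB and 14 LEV animals, without VEH animal 7, whose label marks it as excluded. Animals 1 to 6 of every treatment carry one form of sample code and animals 7 to 14 another, and the labels do not say what these forms stand for. The pups came in 2 orders, and which order each animal came from is not given in the sources used here.

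A cell that divides first copies its DNA in S phase, which needs the MCM helicase, the sliding clamp, polymerases and a supply of deoxynucleotides. It then enters mitosis under cyclin A and B with Cdk1, builds a spindle, attaches chromosomes at their kinetochores, and is released into anaphase by the anaphase-promoting complex before the cell cleaves. In the hippocampus of a rat at this age, cells still divide in the dentate gyrus and among glial precursors, while neurons have left the cycle. In bulk tissue, a lower count from fewer dividing cells and one from less RNA per dividing cell cannot be told apart.

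Genes of S phase and of mitosis are switched on in turn through short promoter elements. E2F factors bind sites in the promoters of S phase genes, and the CHR element together with CCAAT boxes, which NF-Y binds, is the usual arrangement in promoters of mitotic genes. The stretches below are the 150 bases before the annotated start site of 6 genes, from RefSeq promoters of build GRCr8, read 5′ to 3′ on the strand of the gene. The counts themselves rest on build rn6. Capitals mark CCAAT (or ATTGG on the other strand), TTTGAA for the CHR (or TTCAAA), and TTCGCGC or TTGGCGC for E2F (or their reverse complements). An E2F match that ends in CCAA can share those letters with a CCAAT box.
Hmmr: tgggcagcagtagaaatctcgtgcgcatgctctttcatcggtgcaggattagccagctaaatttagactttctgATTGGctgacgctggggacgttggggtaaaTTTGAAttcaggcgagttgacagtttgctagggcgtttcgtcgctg
Nusap1: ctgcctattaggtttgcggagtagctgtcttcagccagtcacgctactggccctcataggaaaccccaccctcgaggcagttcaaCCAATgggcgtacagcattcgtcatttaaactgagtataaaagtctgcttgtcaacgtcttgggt
Top2a: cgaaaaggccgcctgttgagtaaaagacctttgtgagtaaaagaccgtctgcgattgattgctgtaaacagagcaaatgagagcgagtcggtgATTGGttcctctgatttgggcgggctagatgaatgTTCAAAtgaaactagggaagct
Mki67: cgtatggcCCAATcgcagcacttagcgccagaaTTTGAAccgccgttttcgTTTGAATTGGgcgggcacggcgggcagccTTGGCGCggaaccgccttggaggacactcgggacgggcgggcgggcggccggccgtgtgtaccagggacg
Tyms: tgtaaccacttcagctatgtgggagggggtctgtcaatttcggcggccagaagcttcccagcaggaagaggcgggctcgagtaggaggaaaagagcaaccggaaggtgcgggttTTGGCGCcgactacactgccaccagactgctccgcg
Mcm7: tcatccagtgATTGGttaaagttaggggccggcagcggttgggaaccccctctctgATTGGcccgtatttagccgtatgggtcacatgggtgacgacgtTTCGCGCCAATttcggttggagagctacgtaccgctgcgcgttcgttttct
Hmmr, Nusap1, Tyms, Top2a and Mki67 are shown as some of those that passed in a comparison below. Cdca3, Kif11, Plk1, Prc1 and Tpx2 also passed in one by edgeR, with all animals or in either set, and are not shown. Others passed only under other settings. No promoter of Tpx2 was found. In windows of 300 bases, Plk1 and Prc1 held a CCAAT box and a CHR, and Cdca3 and Kif11 a CCAAT box but no CHR. Mcm7 is shown as a helicase gene, the S phase transcript with the smallest p between PB and VEH, although it did not pass with all animals or in either set. The first 4 stretches above are of genes that act in mitosis and the last 2 of genes that act in S phase. The stretch of Hmmr lies at chr10:25665216-25665365 (minus strand), that of Nusap1 at chr3:127057145-127057294 (plus strand) and that of Top2a at chr10:84473094-84473243 (minus strand). The stretch of Mki67 is at chr1:199952594-199952743 (minus strand), that of Tyms at chr9:120776084-120776233 (minus strand) and that of Mcm7 at chr12:22163179-22163328 (minus strand). Hmmr and Top2a hold a CCAAT box and a CHR in these 150 bases, and Mki67 holds 2 of each and an E2F match. Nusap1 holds 1 CCAAT box here, with its CHR match 10 bases past the start site. Tyms holds a single E2F match, and in Mcm7 2 overlapping E2F matches run into the last of 3 CCAAT boxes. RefSeq promoters of 300 bases (250 before and 50 after the start site) were found for 41 of the 51 genes. Of these 41, 73.2% held a CCAAT box, 51.2% a CHR and 26.8% an E2F match, against 37.5%, 18.4% and 3.66% of all 33469 promoters of that length. A CCAAT box and a CHR stood together in 41.5% of the member promoters and in 7.41% of all. These are matches of letters in a window and not shown to be sites in use.

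The totals per animal ranged from 9499492 to 14488134 estimated counts in VEH, from 9586794 to 13140913 in PB and from 10112050 to 12482915 in LEV. Marker transcripts of hippocampal neurons were present in all animals, with a summed normalized count of 26838 to 38700. Choroid plexus markers summed to between 121 and 85061 over the animals. A pair of libraries stood apart. VEH animal 1 had 1 count of Eif2s3y and 0 of Ddx3, transcripts of the Y chromosome that the other VEH animals had at 475 to 977 counts, against the label of male pups. PB animal 2 had the lowest mean level of the 52 proliferation transcripts, at 2.43 log2 CPM, with the next lowest of any animal at 2.66, and a score of 30.8 on the second principal component of all transcripts. Counts of members that passed, and values of animals 1 to 6 that turn on PB animal 2, are given with and without it. Since PB animal 2 was lowest on these same transcripts, values without it lean toward a rise in PB by that choice.

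No proliferation transcript passed the limit of an adjusted p under 0.05 between PB and VEH in all animals, though most lay higher in PB. The limit was passed by 5.39% of the 13062 transcripts (edgeR's quasi-likelihood test, Benjamini-Hochberg adjustment over all transcripts), and 0.605% also passed the fold limit (a rise of at least 25%, or the matching fall). At an unadjusted p under 0.05, 15 of the 52 were higher in PB and 1 was lower, against 9.79% of all transcripts that were higher. Of the 52 fold changes 44 were above 0, against 51.9% of all transcripts, with a median log2 fold change of 0.16 beside 0.0046 for all. DESeq2 put 2 of the 52, Hmmr and Prc1, past the adjusted limit, where it passed 6.88% of all transcripts.

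**Figure D1:**
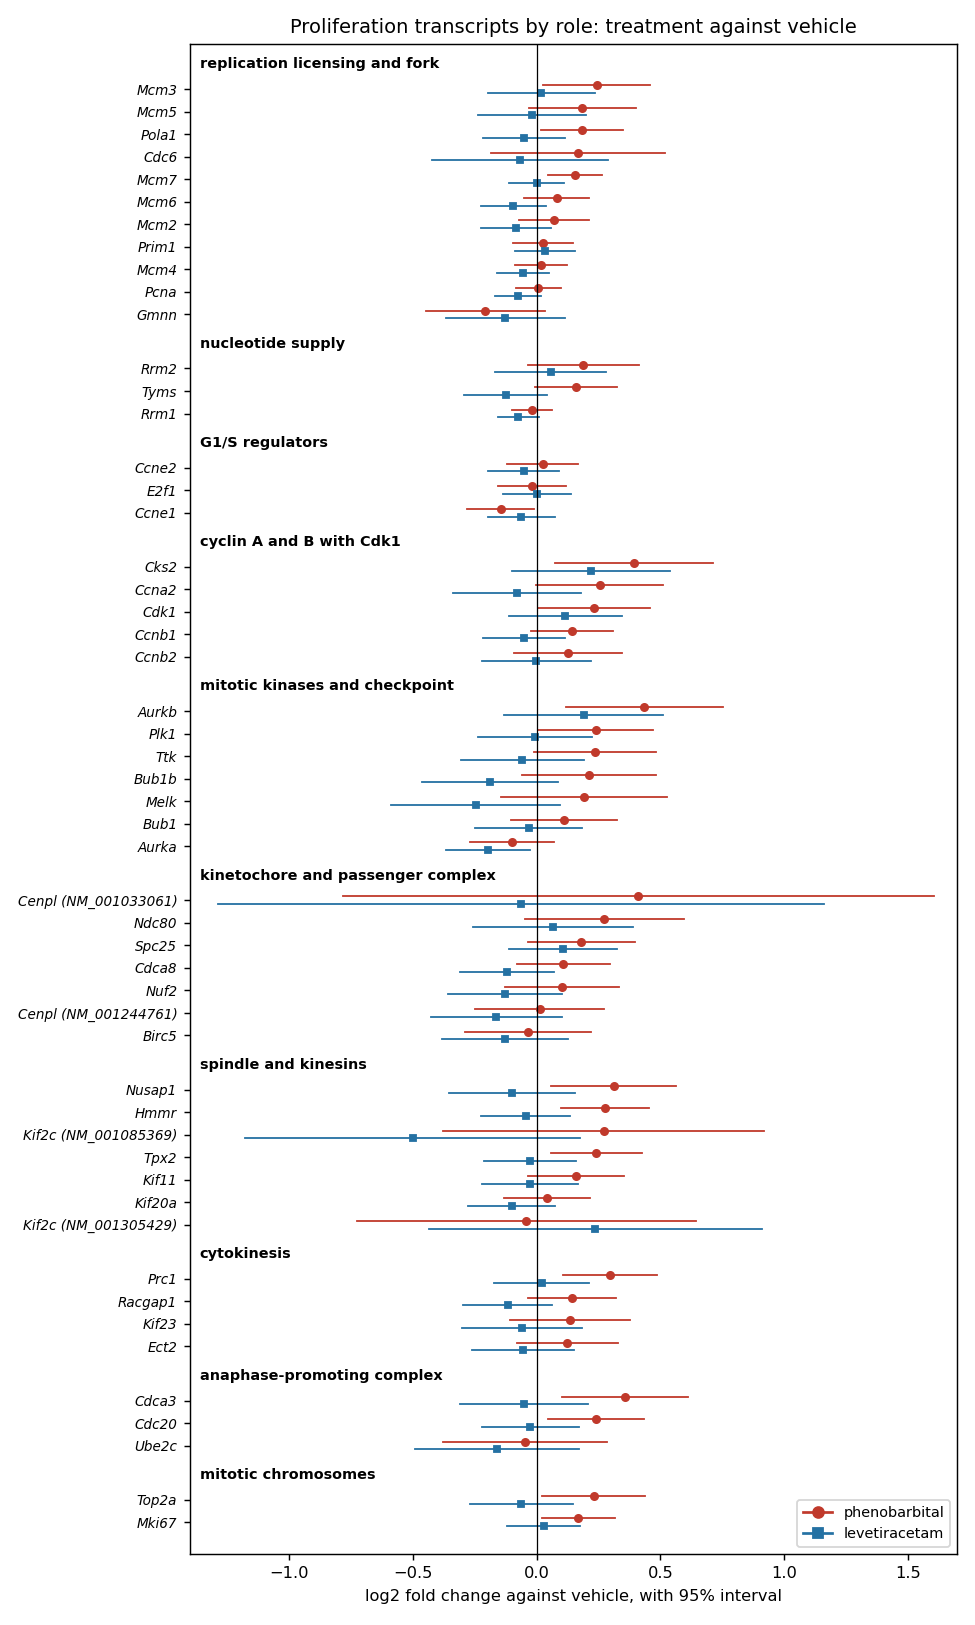
Log2 fold changes of the 52 tested proliferation transcripts against vehicle, grouped by role, with 95% intervals, for phenobarbital (circles) and levetiracetam (squares). Most circles lie right of 0 (44 of 52) and most squares left of it (40 of 52), and the interval leaves out 0 for 16 circles and 1 square.

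Among the genes of replication licensing and the fork, 10 of 11 transcripts were above 0 in PB, with a median of 0.08. Mcm7, a subunit of the replicative helicase, had 205, 261 and 322 normalized counts as the lowest, median and highest of the VEH animals, and 235, 277 and 347 in PB. The groups overlapped over most of their range, and 12 of 14 PB animals were higher than the mean of the VEH animals with the same form of code. Its log2 fold change was 0.16 ± 0.05 (SE, as for all fold changes here; adjusted p = 0.0809), about the same in animals 1 to 6 (0.16) and 7 to 14 (0.16). Mcm3, of the same helicase, was at 0.24 ± 0.11 (adjusted p = 0.183), and Pola1, the catalytic subunit of polymerase alpha, at 0.18 ± 0.08 (adjusted p = 0.192). Pcna, the sliding clamp, had medians of 510 in VEH and 512 in PB and a change of 0.01 ± 0.05. The one member of this role below 0 was Gmnn, geminin, which keeps licensed origins from being licensed again, at -0.21 ± 0.12 (adjusted p = 0.340).

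Of the 3 genes of nucleotide supply, Rrm2, the S phase subunit of ribonucleotide reductase, was at 0.19 ± 0.11 and Tyms, thymidylate synthase, at 0.16 ± 0.08, while Rrm1, the large subunit, was at -0.02 ± 0.04. None had an unadjusted p under 0.05 against VEH. Of the 3 G1/S regulators, 1 was above 0 and 2 below. Ccne1, cyclin E1, which drives entry to S phase with Cdk2, had 128, 155 and 186 counts in VEH and 105, 145 and 165 in PB, a change of -0.15 ± 0.07 (adjusted p = 0.210), and it was the one member lower at an unadjusted p under 0.05. Ccne2 (0.02) and the transcription factor E2f1 (-0.02) lay close to 0.

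All 5 transcripts of cyclins A and B, Cdk1 and its subunit Cks2 were above 0 in PB, with a median of 0.23. Cks2 was highest, at 0.39 ± 0.16 (adjusted p = 0.138), from a median of 33.0 counts in VEH to 46.7 in PB. Ccna2, cyclin A2, was at 0.25 ± 0.13 and Cdk1 at 0.23 ± 0.11. Ccnb2 lay at 0.13 ± 0.11, and its value is uncertain. The counted span, 1492 bases on rn6 chromosome 1, all falls within that of Akap7, and the strand is not given. The promoter of Ccnb2 in GRCr8 lies on chromosome 8. The counts may thus not be those of the gene itself, which was not tested.

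Among the mitotic kinases and the checkpoint, 6 of 7 were above 0, with a median of 0.21. Aurkb, the kinase of the chromosomal passenger complex, had the largest change of all 52 transcripts against VEH, at 0.43 ± 0.16 (adjusted p = 0.0944), with 49.8, 72.7 and 116 counts in VEH and 74.4, 98.2 and 187 in PB. The highest Aurkb counts of the PB group were those of animals 4 and 5. Plk1, which drives several steps of mitosis, was at 0.24 ± 0.11 (adjusted p = 0.228). Aurka, the spindle pole kinase related to Aurkb, was below 0 at -0.10 ± 0.08.

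The kinetochore and passenger transcripts had no member with an unadjusted p under 0.05, and 6 of 7 were above 0, Ndc80 at 0.27 ± 0.16 and Birc5 (survivin) at -0.03 ± 0.13. The spindle group had 3 such members. Nusap1, which bundles microtubules around the chromosomes, was at 0.31 ± 0.12 (adjusted p = 0.137), and Hmmr, a microtubule-binding protein of the spindle, at 0.28 ± 0.09 (adjusted p = 0.0540). Tpx2, which activates Aurora A on spindle microtubules, was at 0.24 ± 0.09 (adjusted p = 0.109).

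In cytokinesis, Prc1 had the smallest p of the 52 transcripts. It bundles the microtubules of the central spindle. Its counts were 149, 194 and 258 in VEH and 104, 222 and 334 in PB, where the lowest was PB animal 2, and 13 of 14 PB animals were higher than the VEH mean for their form of code. The change was 0.30 ± 0.09 (adjusted p = 0.0539). For the anaphase-promoting complex, Cdca3, an adaptor for the degradation of Wee1, was at 0.36 ± 0.13 (adjusted p = 0.0873) and Cdc20, the activator of the complex, at 0.24 ± 0.10 (adjusted p = 0.138), with Ube2c, its E2 enzyme, at -0.05 ± 0.16. On mitotic chromosomes, Top2a, the topoisomerase that untangles DNA, was at 0.23 ± 0.10 (adjusted p = 0.194) and Mki67, the Ki-67 protein that coats the chromosomes, at 0.17 ± 0.07 (adjusted p = 0.174).

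No member passed between LEV and VEH, and most values lay below 0. At an adjusted p under 0.05, 0 of 52 passed, where 0.00766% of all transcripts did, and 0% of all transcripts passed the fold limit as well (edgeR). DESeq2 also passed 0 members. At an unadjusted p under 0.05, 1 member passed, against 2.89% of all transcripts that were lower. This was Aurka, with 56.0, 91.8 and 105 counts in VEH and 63.6, 77.3 and 94.9 in LEV, a change of -0.20 ± 0.08 (adjusted p = 0.806). Of the 52 transcripts, 12 were above 0, against 50.2% of all, and the median was -0.06 beside 0.0003 for all.

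PB and LEV animals differed in 4 of the 52 transcripts, all higher in PB, where 4.45% of all transcripts passed the adjusted limit. Past the fold limit too were 2 of 52, against 0.582%. At an unadjusted p under 0.05, 23 were higher in PB (9.45% of all) and none lower. Above 0 were 47 of 52 (51.3% of all), with a median of 0.19 beside 0.0033. These animals are the same PB animals as in the comparison with VEH, so the values of both are given side by side and not as separate support.

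Hmmr lies on rn6 chromosome 10, 25861490 to 25890640. Its counts were 47.4, 99.6 and 110 as the lowest, median and highest in PB, 46.1, 72.4 and 89.7 in LEV and 59.2, 71.7 and 96.5 in VEH. The PB median lay above every LEV animal, and 13 of 14 were above the LEV mean of their form of code. It rose against LEV by just under the fold limit of 25% (log2 0.32 ± 0.09, adjusted p = 0.0256).

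Tyms lies on chromosome 9, 121918883 to 121931565, and is the one S phase gene of the 4. Its counts were 98.7, 122 and 180 in PB, 81.4, 110 and 132 in LEV and 87.7, 118 and 138 in VEH. The ranges overlapped, and 12 of 14 PB animals were above the LEV mean. The rise was 1.22-fold (log2 0.28 ± 0.08, adjusted p = 0.0338).

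Nusap1 is on chromosome 3, 111422267 to 111452601. It had 40.6, 84.3 and 147 counts in PB, 48.2, 67.8 and 99.9 in LEV and 46.6, 74.1 and 97.4 in VEH. The PB range held both the lowest and the highest animals of the study, the lowest being PB animal 2. The rise was 1.33-fold (log2 0.41 ± 0.12, adjusted p = 0.0419).

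Cdca3, on chromosome 4, 157348020 to 157351609, had 30.9, 69.2 and 90.2 counts in PB, 31.7, 49.0 and 72.8 in LEV and 36.1, 48.8 and 82.0 in VEH. PB and LEV overlapped, with 12 of 14 PB animals above the LEV mean. It rose 1.33-fold (log2 0.41 ± 0.12, adjusted p = 0.0486).

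These calls did not hold under every setting. Without the term for the form of code 0 members passed (edgeR, 22 at an unadjusted p under 0.05), where 2.2% of all transcripts did. With all 14 VEH animals in the fit Hmmr alone passed, where 1.33% of all transcripts did. The next in order was Bub1b, the BubR1 kinase of the spindle checkpoint, at 0.40 ± 0.13 (adjusted p = 0.0708). It was past the limit by DESeq2, which passed 5.72% of all transcripts. Kif2c, a kinesin that takes apart microtubules, cannot be read in either direction. One of its transcripts (NM_001085369) was at 0.77 ± 0.32 (adjusted p = 0.161) and the other (NM_001305429) at -0.28 ± 0.33 (adjusted p = 0.700). The authors' algorithm divides shared reads between them, 100% and 97.6% of their estimates were not whole numbers, and 3 LEV animals were at 0 in the first and 1 LEV animal at 0 in the second.

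**Figure D2:**
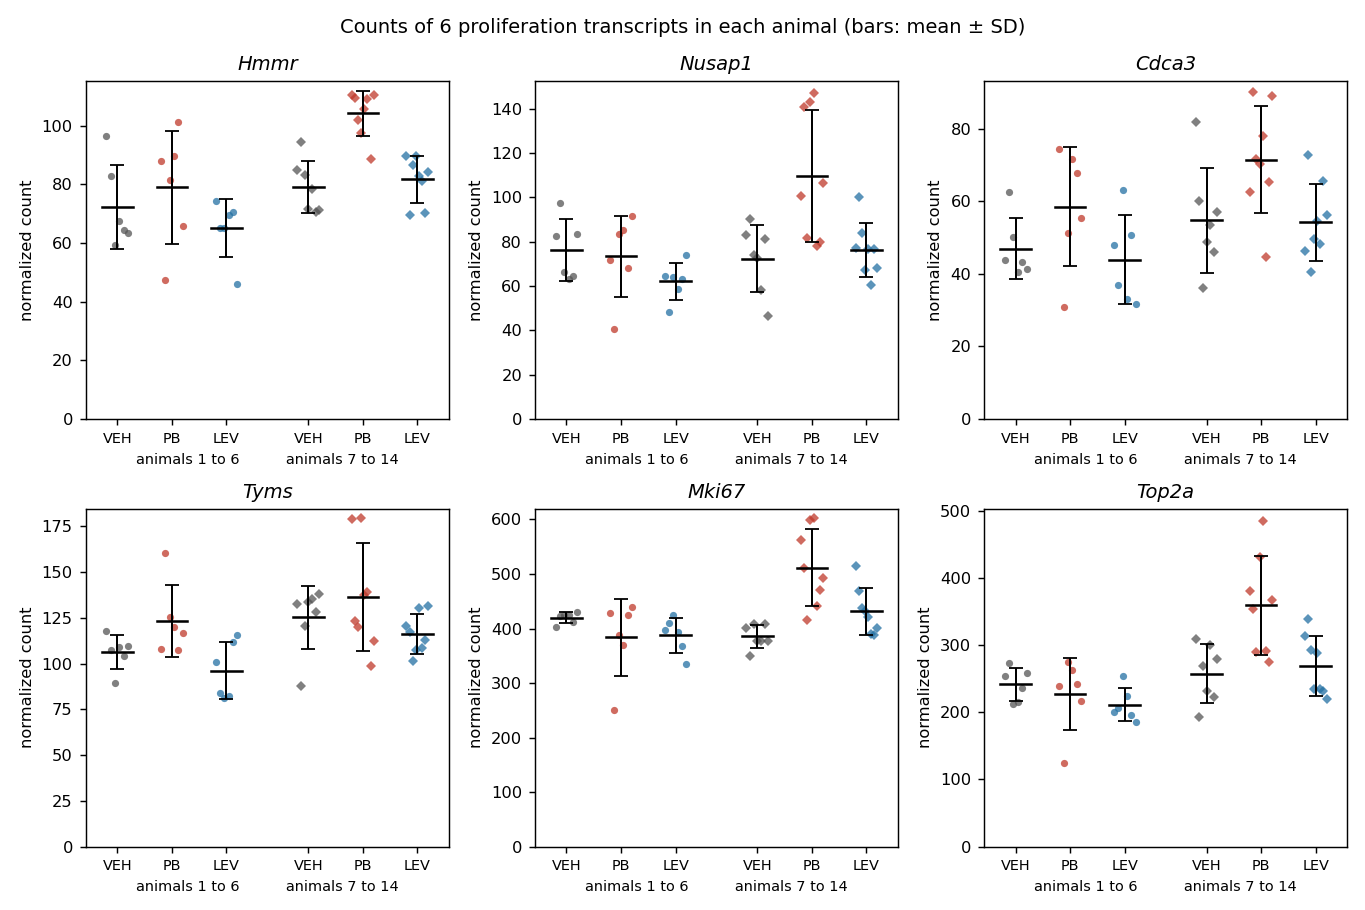
Normalized counts of Hmmr, Nusap1, Cdca3, Tyms, Mki67 and Top2a in each animal, by treatment and form of sample code (circles, animals 1 to 6; diamonds, animals 7 to 14), with mean ± SD. In 5 of the 6 panels the lowest PB circle is animal 2, and in animals 7 to 14 the PB points of Mki67 lie at 416 to 602, above all VEH points at 350 to 409.

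Between PB and VEH, members passed in animals 7 to 14 and not in animals 1 to 6. In animals 1 to 6, the median of the 52 was 0.02 (all transcripts 0.0111), 31 were above 0, and 0 passed an adjusted p under 0.05, where 0.488% of all transcripts did (edgeR, 0 members at an unadjusted p under 0.05). In animals 7 to 14 the median was 0.26 (all transcripts 0.0035) and 43 were above 0. There 7 passed, all higher in PB and all past the fold limit, where 4.09% of all transcripts passed, and 24 were higher at an unadjusted p under 0.05. For each set alone, the share of all transcripts above 0 or under the unadjusted limit was not computed. The same holds for unadjusted counts in the interaction tests and in fits with animals left out. The 7 were Mki67, Kif11, Plk1, Hmmr, Prc1, Top2a and Nusap1. All 7 act in mitosis, but so do most of the 52. The rest were 11 transcripts of replication licensing and the fork, 3 of nucleotide supply and 3 of G1/S regulators.

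Mki67 (rn6 chromosome 1, 207993895 to 208020455) had the smallest adjusted p of the 7. In animals 1 to 6 the counts had a lowest, median and highest of 403, 423 and 430 in VEH, 251, 406 and 439 in PB and 335, 395 and 424 in LEV. In animals 7 to 14 they were 350, 378 and 409 in VEH, 416, 502 and 602 in PB and 389, 427 and 515 in LEV. PB and VEH thus overlapped in the first set and did not overlap in the second, and LEV lay between. The change against VEH was -0.13 ± 0.10 (adjusted p = 0.631) in animals 1 to 6 and 0.41 ± 0.08 (adjusted p = 0.00490) in animals 7 to 14.

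Kif11, the kinesin that pushes the spindle poles apart, had PB counts of 54.1, 111 and 124 beside VEH counts of 106, 118 and 137 in animals 1 to 6. In animals 7 to 14 its PB counts were 139, 161 and 186 beside 95.1, 115 and 150 in VEH. The change went from -0.21 ± 0.14 to 0.45 ± 0.09 (adjusted p = 0.0103 in the second set). Top2a (rn6 chromosome 10, 86901467 to 86930950) had 125, 241 and 275 counts in PB and 213, 245 and 273 in VEH among animals 1 to 6, and 275, 360 and 485 beside 192, 269 and 309 among animals 7 to 14. The change in animals 7 to 14 was 0.48 ± 0.13 (adjusted p = 0.0303), and all 8 PB animals there were higher than the VEH mean.

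Plk1 was at 0.52 ± 0.11 in animals 7 to 14 (adjusted p = 0.0127), Nusap1 at 0.60 ± 0.16 (adjusted p = 0.0324), Prc1 at 0.46 ± 0.11 (adjusted p = 0.0239) and Hmmr at 0.40 ± 0.09 (adjusted p = 0.0127). In animals 1 to 6, 2 of the 7 were above 0, Prc1 (0.10 ± 0.14) and Hmmr (0.13 ± 0.17), and 5 below. That count turned on PB animal 2. Without it 5 of the 7 were above 0 there, Hmmr at 0.24, Prc1 at 0.23, Nusap1 at 0.07, Top2a at 0.03 and Plk1 at 0.02, and 2 below, Mki67 at -0.03 and Kif11 at -0.07. Aurkb, Cdca3, Cks2 and Mcm7 had changes of like size in both sets, 0.43 and 0.45, 0.32 and 0.38, 0.46 and 0.34, and 0.16 and 0.16, and passed in neither.

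**Figure D3:**
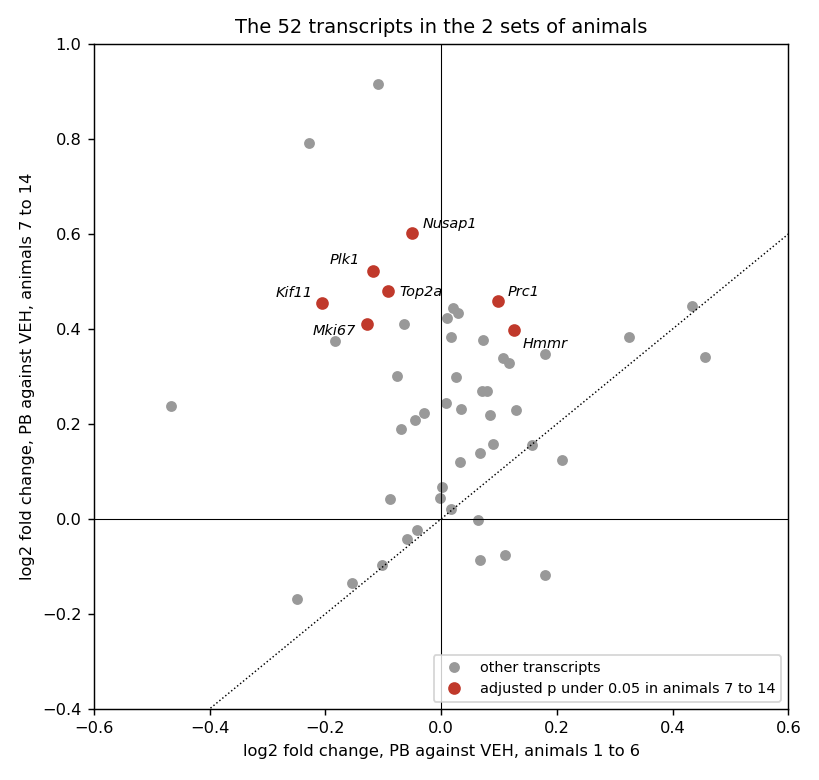
Log2 fold change between phenobarbital and vehicle of each of the 52 transcripts in animals 1 to 6 (horizontal) and animals 7 to 14 (vertical); the dotted line marks equal changes. The 7 named transcripts, which passed an adjusted p under 0.05 in animals 7 to 14, lie above the line, and 5 of them lie left of 0 (2 when PB animal 2 is left out).

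The difference of the change between the 2 forms of code was tested with an interaction term. No member passed an adjusted p under 0.05, where 0.0689% of all transcripts did (edgeR), and 8 had an unadjusted p under 0.05. The largest of the 8 relative to its error was Mki67, at 0.54 (p = 9.3e-05, adjusted p = 0.0807), followed by Kif11 at 0.66 (p = 0.00029, adjusted p = 0.103). DESeq2 passed both, with adjusted p = 0.0208 and 0.0322. The share of all transcripts that DESeq2 passed in the interaction was not computed, with or without PB animal 2. Without PB animal 2, edgeR again passed 0 members (7 at an unadjusted p under 0.05, 0.107% of all transcripts past the adjusted limit), with Mki67 at 0.44 (adjusted p = 0.0737) and Kif11 at 0.53 (adjusted p = 0.136). DESeq2 passed Mki67 then (adjusted p = 0.0200), but gave an adjusted p to no member other than Mki67, Pcna and Rrm1. Kif11 was thus without one, and the DESeq2 and edgeR adjustments did not cover the same transcripts. Whether the change differs between the sets therefore depends on the test for Mki67 and Kif11, and was not shown for the others.

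The share of counts from Rn18s, the ribosomal RNA, was read by treatment and form of code. In animals 7 to 14 it was 0.853% to 1.20% in VEH (median 1.13%), 0.434% to 0.905% in PB (median 0.694%) and 0.384% to 1.06% in LEV (median 0.507%). In animals 1 to 6 it was 0.963% to 1.23% in VEH, 0.953% to 1.68% in PB and 0.932% to 1.28% in LEV. In the second set PB and VEH overlapped only between 0.853% and 0.905%, and LEV had the lowest median there. The part of Rn18s in the proliferation values was not tested.

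For LEV against VEH, 0 members passed in animals 1 to 6 (2.64% of all transcripts) and 0 in animals 7 to 14 (0.0459%), with medians of -0.08 and -0.01 and with 4 and 3 members at an unadjusted p under 0.05 (edgeR). The interaction passed in 0 members, against 0.842% of all transcripts, with 6 at an unadjusted p under 0.05. Between PB and LEV, 0 members passed in animals 1 to 6 (0.618%) and 3 in animals 7 to 14 (1.01%), all higher in PB. These were Hmmr (0.35, adjusted p = 0.0349), Plk1 (0.43, adjusted p = 0.0471) and Tpx2 (0.42, adjusted p = 0.0484).

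As a description by animal, the mean level of the 52 transcripts was 3.07 ± 0.24 log2 CPM in PB (SD, n = 14), beside 2.95 ± 0.08 in the 13 VEH animals and 2.88 ± 0.13 in the 14 LEV animals. By form of code, the PB mean was 2.91 ± 0.25 for animals 1 to 6 and 3.20 ± 0.15 for animals 7 to 14, beside 2.93 ± 0.07 and 2.97 ± 0.09 in VEH and 2.80 ± 0.12 and 2.94 ± 0.10 in LEV. PB was the group with the widest spread, with PB animal 2 at the bottom and 3 PB animals of the second set at the top, at up to 3.39.

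**Figure D4:**
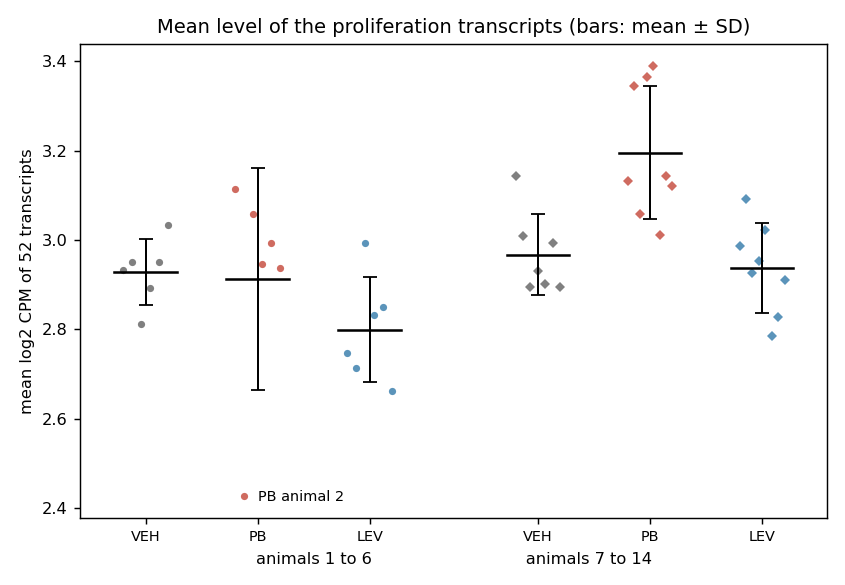
Mean log2 CPM of the 52 transcripts in each animal, by treatment and form of sample code, with mean ± SD of each set. PB animal 2, at 2.43, lies below all other animals, and the PB animals of the second set reach 3.39.

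The number of transcripts that passed turned on 1 animal. Without PB animal 2, 10 members passed an adjusted p under 0.05 against VEH (0 with this animal), and 5 of them passed the fold limit, while the share of all transcripts that passed went from 5.39% to 4.49%. The 10 were Prc1 (0.35 ± 0.08, adjusted p = 0.00712), Hmmr (0.32 ± 0.08, adjusted p = 0.0108), Cdc20, Tpx2, Ccna2, Mki67, Cdk1, Cdca3, Top2a and Nusap1. Between PB and LEV 11 passed in place of 4, and Tyms was not among them (0.24 ± 0.08, adjusted p = 0.0680). The share of all transcripts that passed between PB and LEV in that fit is not given here. PB animal 2 was the lowest of all animals on the mean level of these same transcripts. Leaving it out therefore raises the mean level of PB and narrows its spread by construction. The numbers and p values without it are thus partly fixed in advance and are not a separate test of PB. Leaving out each of the other 40 animals in turn gave 0 to 3 members between PB and VEH, with 0 in 28 of all 41 fits. Between PB and LEV the number was 0 without PB animal 7, and otherwise 1 to 6 when PB animal 2 was kept.

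**Figure D5:**
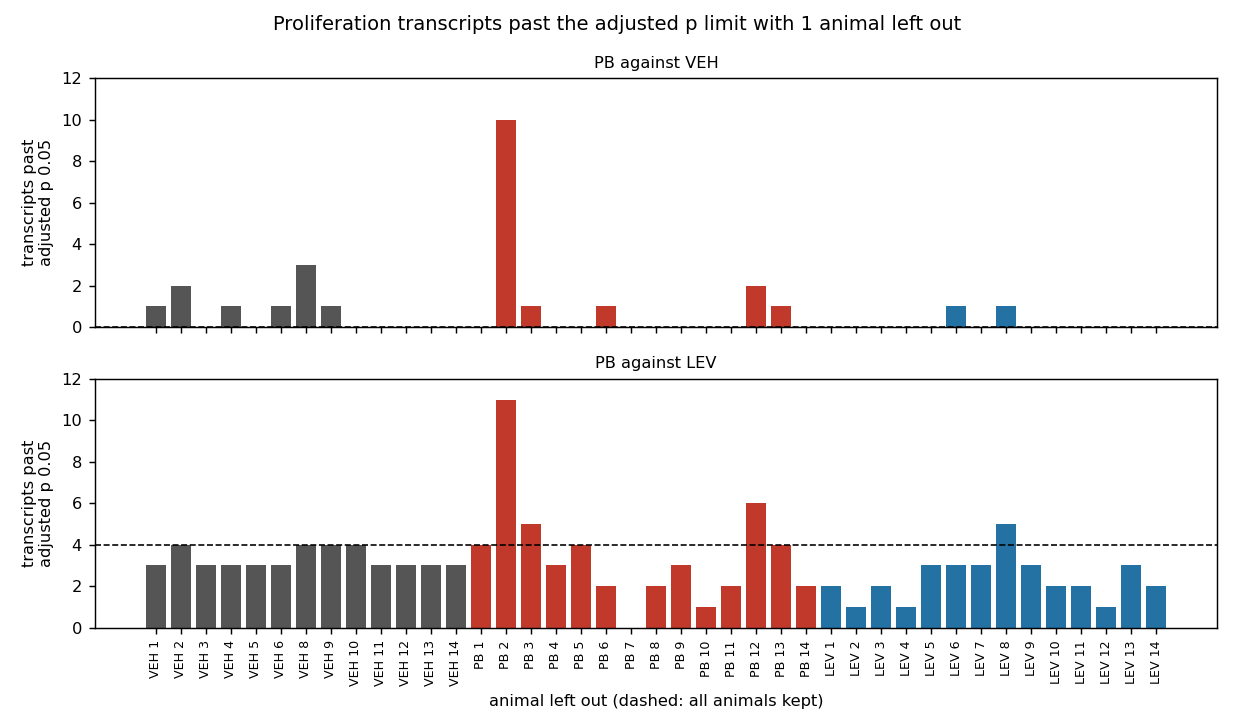
Number of the 52 transcripts with an adjusted p under 0.05 when 1 animal was left out, for PB against VEH (top) and PB against LEV (bottom); dashed lines give the number with all animals (0 and 4). The bars for PB animal 2 reach 10 and 11, and between PB and LEV the bar for PB animal 7 is at 0.

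VEH animal 1, the library without Y chromosome counts, mattered less. Without it, 1 member (Hmmr) passed between PB and VEH (4.66% of all transcripts) and 3 (Hmmr, Nusap1 and Tyms) between PB and LEV (4.37%). With both VEH animal 1 and PB animal 2 left out, 9 members passed between PB and VEH (4.15% of all transcripts). Between PB and LEV 11 passed, and the share of all transcripts is not given here. In animals 1 to 6 alone and without PB animal 2, the median between PB and VEH was 0.09 and 0 members passed (0.281% of all transcripts). At an unadjusted p under 0.05 there were 6 (edgeR).

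Other genes of the cycle, outside the 51, were read beside them in the same animals. Their lists too were chosen with earlier results of these data known, so they are not separate support. Of 49 tested transcripts of other mitosis genes, 8 were higher in PB than in VEH past both limits and 0 lower, where 0.605% of all transcripts passed both, with a median of 0.18. These 8 were Hjurp (0.57 ± 0.13, adjusted p = 0.00593), the chaperone that loads the centromere histone, Aspm (0.34 ± 0.08, adjusted p = 0.00907), a spindle pole protein, Ckap2, Espl1 (separase), Cenpw, Tacc3, Troap and Mybl2. Between PB and LEV 10 of the 49 were higher (4.45% of all passed), 9 of them past the fold limit (0.582%). Of 44 transcripts of other S phase genes, 1 was higher in PB than in VEH past the adjusted limit, Lig1, the ligase that joins fragments of the lagging strand (0.23 ± 0.05, adjusted p = 0.00562), with 14 of 14 PB animals above the VEH mean of their set. A single call among 44 is a smaller share than the 5.39% of all transcripts. The 14 transcripts of G1 cyclins, kinases and pocket proteins had 0 past the limit against VEH (1 at an unadjusted p under 0.05, Rb1 at 0.09 ± 0.04). In animals 1 to 6 none of these lists had a transcript past the adjusted limit between PB and VEH (0.488% of all), and in animals 7 to 14 other mitosis genes had 10 and other S phase genes 1 (4.09% of all). Between LEV and VEH, Ccnd2, cyclin D2, was lower in animals 1 to 6 (-0.37, adjusted p = 0.0130), where 2.64% of all transcripts passed.

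The proliferation transcripts varied together to a modest degree over the 41 animals. Taken as deviations from the mean of the animals of the same treatment and form of code, the median correlation between any 2 of them was 0.195, and 0.150 without PB animal 2, and for the 42 with a mean of at least 50 counts it was 0.224, beside -0.0027 between all transcripts with that mean. On the same deviations Mki67 was correlated with Top2a (Pearson r = 0.776, permutation p = 2e-05, adjusted over 4 relations 8e-05; Spearman rho = 0.681, permutation p = 7e-05). The r was 0.643 without PB animals 2 and 11, 0.775 within animals 1 to 6 and 0.784 within animals 7 to 14. Mki67 was not shown to be correlated with Mcm5 (r = 0.180, permutation p = 0.311, rho = 0.161). Its r with Pdgfra, a marker of oligodendrocyte precursors, was 0.522 (permutation p = 0.0330, adjusted 0.0660; rho = 0.294) and fell to 0.218 without the same 2 animals, so it rests on them. Eomes was not analysed here. With Ttr, of choroid plexus, r was 0.134 (permutation p = 0.420, rho = 0.0551). Among transcripts with a mean of at least 50 counts and outside the 51 genes, those most like Mki67 by r over the 41 animals were Canx (0.745), Smc4 (0.734), Hspa4 (0.734), Srsf5 (0.716) and Knl1 (0.706), of which Smc4 (condensin) and Knl1 (kinetochore) act in mitosis.

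Markers of other cells were read beside the proliferation genes. Between PB and VEH, the 52 members had medians of 0.02 in animals 1 to 6 and 0.26 in animals 7 to 14. The medians in the same order were 0.14 and 0.12 for dentate progenitors and neuroblasts. They were -0.13 and 0.03 for oligodendrocyte precursors, and -0.15 and -0.03 for astrocytes. Of the 9 precursor transcripts 0 were above 0 in animals 1 to 6 and 6 in animals 7 to 14. The interaction term passed an adjusted p under 0.05 (edgeR) in 0 dentate, 1 precursor and 1 astrocyte transcript, and in 0.0689% of all transcripts. Of 13 transcripts of dentate progenitors and neuroblasts, Sox11 (0.31 ± 0.07, adjusted p = 0.00723), Sox2 (0.17 ± 0.04, adjusted p = 0.0170) and Sox4 (0.14 ± 0.04, adjusted p = 0.0432) were higher in PB than in VEH (5.39% of all transcripts passed), 10 of the 13 were above 0, and one transcript of Nes, NM_012987, was lower at an unadjusted p under 0.05 (-0.65 ± 0.30, adjusted p = 0.210). The list summed to 10171 to 12767 counts in VEH, 11331 to 16982 in PB and 10260 to 12785 in LEV. Of 9 transcripts of oligodendrocyte precursors, C1ql1 alone passed with all animals and was lower in PB (-0.22 ± 0.06, adjusted p = 0.0268). The list summed to 9325 to 10791 in VEH, 8493 to 10359 in PB and 8711 to 10915 in LEV. Of 17 astrocyte transcripts, Gfap was higher (0.32 ± 0.06, adjusted p = 0.00241) and Aldoc, Slc1a3 and Fgfr3 lower, with sums of 40998 to 51626 in VEH, 39214 to 51022 in PB and 35131 to 49930 in LEV. No marker of these lists was at 0 in all animals of a group. The part of these cells in the proliferation values was not tested. Of microglia, endothelium, neuron, choroid plexus, ependyma and red blood cell lists, no transcript passed between PB and VEH (edgeR). Of the 10 neuron transcripts 9 were below 0, with a median of -0.12 and 5 at an unadjusted p under 0.05, and the list summed to 32470 to 38331 counts in VEH, 26838 to 35651 in PB and 31797 to 38700 in LEV.

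Between PB and LEV, where 4.45% of all transcripts passed, the dentate list had 4 higher in PB, Dcx (0.29 ± 0.07, adjusted p = 0.00761), Sox11, Sox2 and Sox4. Of the neuron list 3 were lower, Gad1 (-0.18 ± 0.05, adjusted p = 0.0400) and a pair of Snap25 transcripts with identical values (-0.18 ± 0.05, adjusted p = 0.0236). Cldn5 of endothelium (-0.22 ± 0.06, adjusted p = 0.0227) and Matn4 of oligodendrocyte precursors (-0.22 ± 0.06, adjusted p = 0.0267) were lower too.

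The 4 tested transcripts of the skeletal muscle list, Atp2a1, Myh4, Acta1 and Pvalb (the last also a marker of interneurons), were all lower in PB than in VEH. The list of 18 transcripts summed to 164 to 534 counts in VEH, 110 to 268 in PB, where 5 were at 0 in all animals, and 160 to 681 in LEV. With its level as a covariate, 2 members passed between PB and VEH (Mki67 and Plk1) in place of 0, and 0 between PB and LEV in place of 4, while the medians were 0.26 and 0.27. Under this covariate the share of all transcripts that passed fell from 5.39% to 1.09% between PB and VEH and from 4.45% to 0.536% between PB and LEV. With the level of choroid plexus markers as a covariate the numbers were 0 and 4, as without it.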

How the data were processed

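Hippocampal RNA of 42 pups was sequenced, 1 library each. The authors aligned the reads to rn6 with STAR 2.7.3a and deposited estimated counts per RefSeq transcript from the Partek E/M algorithm, with no normalization, and 13.7% of these expected counts are not whole numbers. Their table of DESeq2 comparisons, with p values, ratios, fold changes and group means, was not used. The estimated counts were rounded here and fitted with edgeR 4.0.16 in R 4.3.3: TMM, filterByExpr by treatment, and glmQLFit and glmQLFTest on a model of treatment plus form of sample code, over 13062 transcripts and 41 animals. p values are two-sided and were adjusted by Benjamini-Hochberg. The fold limit was a rise of 25% or the matching fall, beside an adjusted p under 0.05. Normalized counts are scaled by effective library sizes (9588079 to 13786159). The log2 CPM of the mean levels has an offset of 0.5 counts. That used for correlations, principal components and marker covariates has a prior count of 2. Low transcripts have few counts per animal, and their precision is given by the SE. The test was tried on simulated data.

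Which animals shared a litter is not given in the sources used here. The members and lists were chosen with earlier results of these data known. Named are the 5 smallest p values of each comparison, the members past the limits, the highest and the lowest fold change, members chosen for their role, the genes of other lists past the limits or with the smallest p values, and the 5 transcripts most like Mki67. Permutation tests were two-sided with 100000 resamples, within treatment and form of code. Alternatives were DESeq2 1.42.0, its size factors, a minimum mean of 50 counts or no filter, other model terms, each set of animals alone, all 14 VEH animals, 2 groups only, counts per gene symbol, the choroid plexus level as a covariate, and each animal left out. The 4 alternatives chosen after seeing the data were PB animal 2 and VEH animal 1 both left out, the skeletal muscle level as a covariate, animals 1 to 6 without PB animal 2, and the difference between forms of code without PB animal 2.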

Additional observations from a re-analysis of the deposited data

Results flagged for a closer look

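In each treatment and form of sample code, the highest or lowest animal was set against the rest of its group of 6 to 8 by the gap to its nearest neighbour over the whole range. Of 192 such groups, 21 were marked, and chance marks about 1 in 20. Of the 21, 11 were PB animal 2, over 10 transcripts and the mean level of the 52.

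PB animal 2 had a mean level of 2.43 log2 CPM. Its normalized counts were the lowest of PB animals 1 to 6 for Bub1b (36.7), Ccna2 (25.1), Cdk1 (34.8), Kif11 (54.1), Mki67 (251), Nusap1 (40.6), Prc1 (104), Top2a (125) and Ube2c (11.6), and the highest for E2f1 (303). The 10 other marks fell on 10 different animals. Low values were Aurka in VEH animal 2 (56.0), Mcm5 in VEH animal 6 (54.8), Rrm1 in VEH animal 3 (486), Tyms in VEH animal 9 (87.7), Hmmr in LEV animal 6 (46.1) and E2f1 in LEV animal 11 (183). Cdc20 in VEH animal 1 was also low (88.3), and Birc5 in LEV animal 8 was high (108). The other 2 were transcripts of Kif2c at 0, NM_001085369 in LEV animal 12 and NM_001305429 in LEV animal 7, between which the authors' algorithm divides shared reads.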

How the results depend on the processing

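Between PB and VEH 0 members passed an adjusted p under 0.05. The number was 2 with DESeq2 (6.88% of all transcripts) and 2 of 42 with a mean of at least 50 counts (7.02%). With counts summed per gene symbol it was 2 of 50 (6.02% of all genes). With the skeletal muscle level it was 2 (1.09% of all transcripts) and in animals 7 to 14 it was 7 (4.09%). Without PB animal 2 and VEH animal 1 it was 9 (4.15%). With no filter it was 1 (4.32%), where the Kif2c transcript NM_134472, lower in PB, also passed the fold limit. Past both limits it was 7 in animals 7 to 14, 4 without PB animal 2 and VEH animal 1 and 2 with the muscle level. The median of 0.16 was 0.0187 in animals 1 to 6. There the fold changes of Plk1 (-0.12), Mki67 (-0.13), Top2a (-0.0912) and Nusap1 (-0.05) turned below 0 (without PB animal 2, 0.02, -0.032, 0.03 and 0.07), as did that of Plk1 between PB and LEV (-0.0262). Between PB and LEV 4 members passed, and 2 past both limits. These became 0 and 0 without the term for form of code, in animals 1 to 6 (also without PB animal 2) and with the muscle level, 1 and 0 with all 14 VEH animals, and 11 and 9 without PB animal 2 and VEH animal 1. Past both limits it was 1 with no filter and 1 with a term for each treatment within each form. Of all transcripts, 2.2% passed the adjusted limit between PB and LEV without the term for form of code. The share was 1.33% with all 14 VEH animals and 0.618% in animals 1 to 6. The difference between the forms of code for PB against VEH passed in 0 members by edgeR, also without PB animal 2. By DESeq2 it passed in 2, and the share of all transcripts was not computed there. Leaving out 1 animal gave 0 to 10 (adjusted) and 0 to 5 (both limits) between PB and VEH, and 0 to 11 and 0 to 8 between PB and LEV. LEV against VEH stayed at 0 in all settings run. The cause of these changes was not tested.

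Animal number was tried as a replicate block. Same-numbered animals did not deviate together, with r over 0.1 in 10 of 40 pairs of animals (-0.332 to 0.329), and 5 correlated best with their own number. With the block, 0 members passed between PB and VEH (3.42% of all transcripts), and 3 between PB and LEV (3.5%), 1 of them past both limits. Members under about 50 counts per animal have wide intervals, and a change of their size could be missed.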
